A study of Bos taurus with 10 samples.

Results

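The heat shock proteins and their DNAJ co-chaperones were described in the bovine corpus luteum, the progesterone-secreting gland that a follicle becomes after ovulation. Members were the probesets of the deposited table with exactly 1 gene symbol beginning with HSPA, HSPB, HSPD, HSPE, HSPH, HSP90, DNAJA, DNAJB or DNAJC. The rule found 65 genes of 18010 with a symbol of their own, each with 1 probeset. The tissue came from cows supplemented with selenium in forms that the labels name only as MIX (5 samples) and ISe (5 samples), and all 10 samples are of cycle day 7. Each sample was hybridised to 1 array, and precision is limited by having 5 arrays a group. Breed, age and dose are not given in the labels. Nothing in them ties samples to separate animals, and the p-values then cover only the spread between these samples, which may be technical.

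Chaperones bind unfolded or partly folded proteins and keep them from aggregating. HSP70 proteins do this in cycles driven by ATP, in which a DNAJ protein delivers the client and starts ATP cleavage, and an HSP110 protein or another exchange factor frees the nucleotide. HSP90 acts later on clients such as kinases and steroid hormone receptors, small heat shock proteins hold unfolded proteins without ATP, and HSPE1 is the lid of the mitochondrial HSP60 barrel. Cytosolic members can be induced by heat shock factor HSF1, and those of the endoplasmic reticulum by the unfolded protein response. Luteal cells use mitochondria and smooth endoplasmic reticulum for steroid synthesis, and the mitochondrial and reticulum chaperones fold proteins of those compartments.

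The current cattle gene table (assembly ARS-UCD2.0) holds 73 genes with such names, and 8 of them had no probeset of their own here. HSP90AA1, HSPD1, DNAJA1, DNAJA2, DNAJC10 and DNAJC19 were measured only by probesets shared with another symbol and were kept out of the 65 genes. The log2 differences of these shared probesets, MIX minus ISe, ran from -0.16 (DNAJC19) to 0.08 (HSPD1), with HSP90AA1 at -0.0065. Their smallest unadjusted p by limma was 0.109 (DNAJC19). DNAJC8 was not analysed here. HSPA1A, the stress-induced HSP70, was represented by a probeset that the annotation gives this symbol 2 times, under different gene identifiers. It was kept out of the 65 genes and is given apart from them. The rule also took in HSPBP1 and HSPBAP1, which are binding partners and not small heat shock proteins. In the gene table HSPE1 lies next to HSPD1 and HSPA1L next to HSPA1A. Related HSP70 genes such as HSPA1L, HSPA1A, HSPA2, HSPA6 and HSPA8 may share probe signal, so their values are less certain.

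The array medians lay between 5.99 and 6.04 on the log2 scale, and the correlation between any 2 arrays between 0.980 and 0.990. In a principal component analysis of all tested probesets, component 1 set MIX 8 apart and component 2 MIX 1. Of the 10 luteal cell markers chosen, 8 were measured, at mean signals of 7.60 to 13.34, with CYP11A1, HSD3B1, SCARB1, FDX1, OXT and PTGFR all above 12. STAR and FDXR had no probeset of their own. All 11 macrophage markers measured had a higher mean in MIX at an unadjusted p under 0.05 by limma, although 0 passed after adjustment. Their list mean ran from 0.04 to 0.34 in MIX and from -0.48 to 0.02 in ISe (log2, relative to the mean of all arrays). All 9 markers of T and NK cells also had a higher mean in MIX, by a median of 0.34 log2, with 3 at an unadjusted p under 0.05 and 0 after adjustment. Their list mean ran from -0.05 to 0.41 in MIX and from -0.30 to 0.11 in ISe. The part of macrophage and lymphocyte content in the chaperone values below was not tested.

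Chaperone and DNAJ transcripts differed little between MIX and ISe corpora lutea, and no gene of the 65 passed the adjusted threshold. The mean was higher in MIX for 30 genes (46.2%, against 50.4% of all tested probesets) and lower for 35 (53.8%, against 49.6%), with a median log2 difference of -0.0039, against 0.0011 over all 19145 tested probesets. The differences ran from -0.24 (HSPB8) to 0.17 (DNAJB13). At an unadjusted p under 0.05, limma gave 2 of 65 genes (3.08%), against 4.79% of all tested probesets. DNAJB9 was the 1 member higher in MIX (background 2.67%) and HSPB6 the 1 lower (background 2.12%). At an adjusted p under 0.05 it called 0 of 65, against 0% of all tested probesets, and the smallest adjusted p of a member was 0.941. For 0 of the 65 genes did the groups not overlap, against 0.642% of all tested probesets (0.366% higher and 0.277% lower in MIX). The difference was under 0.1 log2 in size for 50 members (76.9%), against 65.6% of all tested probesets, a comparison not matched for signal. With the tested probesets in 4 equal bins of mean signal, the median size in the highest bin was 0.041 for members and 0.055 for all. In the bins below it was 0.065 and 0.060, then 0.086 and 0.074, then 0.067 and 0.090. Members were thus not below all probesets in every bin. Fewer cells of a type and less RNA per cell cannot be told apart in these bulk samples.

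The intervals show how large a difference could have been missed. For 45 of the 65 genes (69.2%) the 95% interval of the fold change, MIX over ISe, lay inside 0.8-fold to 1.25-fold, against 60.5% of all tested probesets. These shares were not matched for signal either. The median standard error of the members was 0.080 log2. The lowest bound, 0.657-fold, was that of DNAJC22, and the highest, 1.54-fold, that of HSPA6. Both were among the genes with the widest spread between samples.

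**Figure D1:**
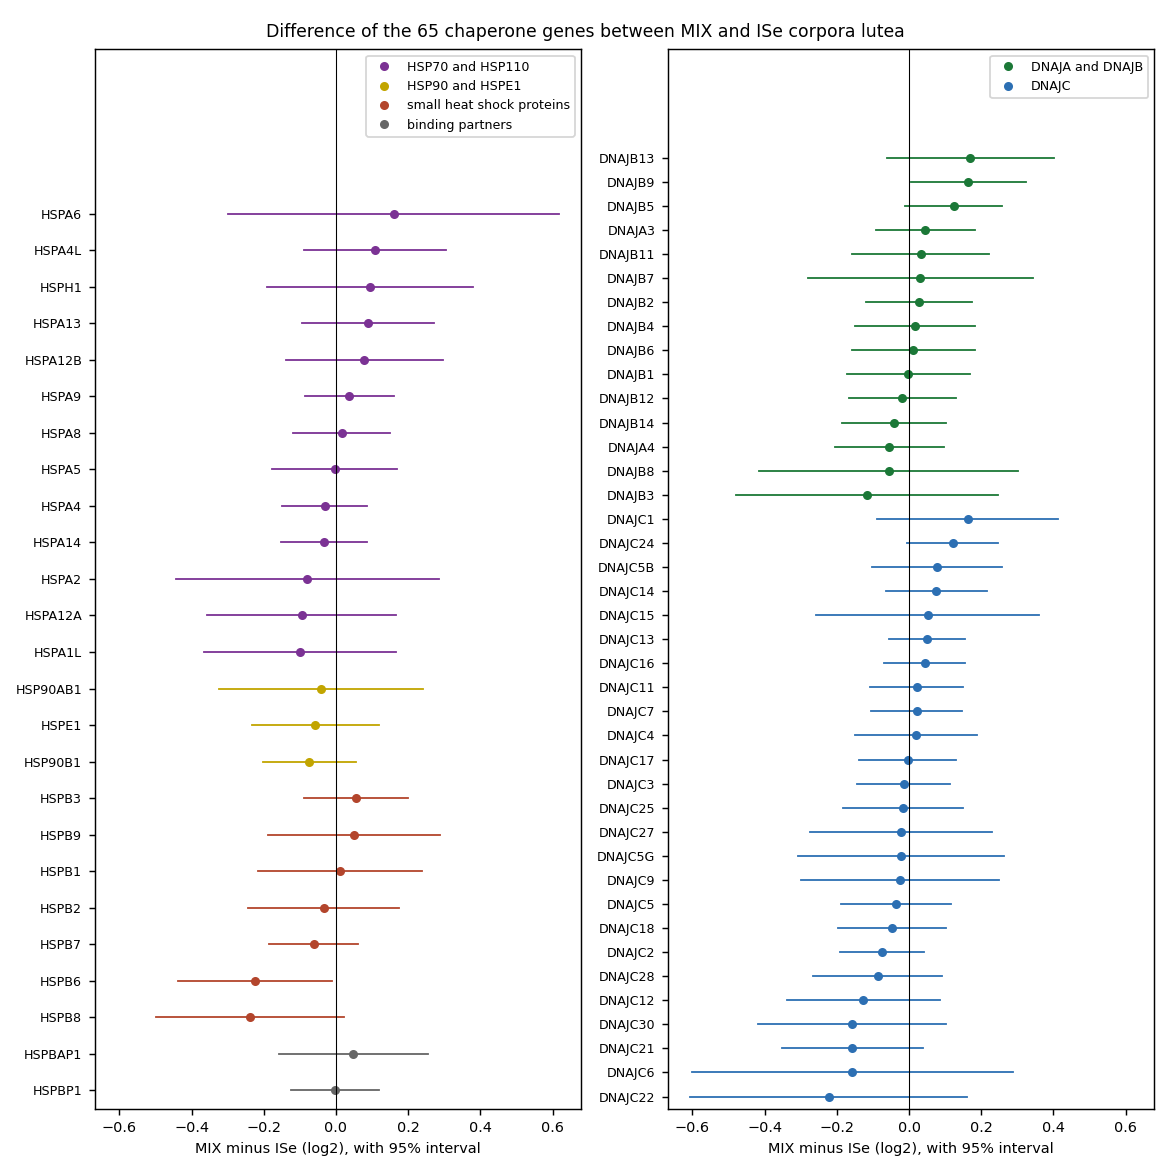
Log2 difference, MIX minus ISe (horizontal axis), of the 65 genes, with 95% intervals of the limma fit, grouped by family (colours). Points lie between -0.24 and 0.17, and the intervals of HSPB6 and DNAJB9 alone do not reach 0.

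Among the HSP70 proteins of the cytosol, HSPA8, the constitutive member that also strips clathrin from vesicles, was nearly level across all arrays. Its signal was 11.92, 11.93, 12.09, 11.94 and 11.97 in MIX 1, 8, 9, 10 and 11, against 11.82, 12.04, 12.02, 11.91 and 11.97 in ISe 2, 3, 5, 6 and 7. The arrays stand in this order in all lists of 5 values that follow. The fold change was 1.01 (95% interval 0.921 to 1.11). The groups overlapped almost fully, with the lowest value in ISe 2 and the highest in MIX 9.

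HSPA2, known for its part in sperm formation and measured well above the dimmest probesets here, varied far more. It read 8.96, 8.54, 9.06, 8.92 and 8.84 in MIX, against 8.33, 9.28, 9.13, 8.94 and 9.04 in ISe. The log2 difference was -0.08 ± 0.17 (SE of the limma fit), and MIX 8 and ISe 2 held the low values, 1 in each group. Over the 10 arrays its SD of 0.281 exceeded that of 87.3% of tested probesets.

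HSPA6, which in humans is silent until severe stress, and HSPA1L, known from testis, lay at mean signals of 4.15 and 4.18, where array values are less certain. HSPA6 read 4.07, 4.41, 4.03, 4.43 and 4.24 in MIX, against 4.24, 4.25, 3.21, 4.51 and 4.16 in ISe. A single low sample, ISe 5, set its log2 difference of 0.16 ± 0.21, which was -0.06 without that sample. HSPA14, which joins DNAJC2 in a complex at the ribosome, had a mean ± SD of 8.71 ± 0.07 in MIX, against 8.75 ± 0.04 in ISe (5 arrays each, as for all means ± SD below). The distant relatives HSPA12A and HSPA12B, the second known from endothelium, had log2 differences of -0.10 ± 0.12 and 0.08 ± 0.10 (SE). All 8 endothelial markers measured had a higher mean in MIX, by a median of 0.16 log2, with 1 at an unadjusted p under 0.05 by limma and 0 after adjustment. Their list means overlapped, from -0.07 to 0.20 in MIX and from -0.22 to 0.15 in ISe. The part of endothelial content in HSPA12B was not tested.

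The probeset of the stress-induced HSPA1A, which stands apart from the 65 genes, had a larger difference in means than any of them. It also had the largest difference and the smallest unadjusted p of the 10 family probesets that list more than 1 symbol entry. It read 9.47, 9.18, 8.54, 8.95 and 8.67 in MIX, against 8.34, 8.67, 8.36, 8.90 and 8.48 in ISe. The 3 samples MIX 1, MIX 8 and MIX 10 lay above every ISe sample, and MIX 9 and MIX 11 lay within the ISe range. The log2 difference of 0.41 ± 0.18 had an unadjusted p of 0.0392 and an adjusted p of 0.941 by limma, and an exact two-sided permutation test gave 0.0794. It was 0.17 without MIX 1 and MIX 8 together. The macrophage list mean was 0.29 in MIX 1, 0.34 in MIX 8 and 0.31 in MIX 10. It was -0.08 in ISe 6, where HSPA1A read 8.90, and 0.15 in MIX 9, where HSPA1A read 8.54. A relation between HSPA1A and the macrophage list was not tested.

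The HSP110 proteins HSPH1, HSPA4 and HSPA4L free ADP from HSP70. HSPH1, a heat-induced gene, read 9.16, 9.22, 9.45, 9.04 and 9.22 in MIX, against 8.64, 9.22, 9.35, 9.25 and 9.16 in ISe. ISe 2 stood well below the other 9 samples, and the log2 difference of 0.09 ± 0.13 became -0.03 without it. HSPA4 was among the steadiest genes, at 10.26 ± 0.08 in MIX, against 10.29 ± 0.03 in ISe, with a 95% interval of the fold change from 0.902 to 1.06. HSPA4L, at 5.68 ± 0.17 in MIX, against 5.57 ± 0.11 in ISe, carried the same deposited value on 5 of the 10 arrays. Of the 13 HSP70 and HSP110 genes, 7 had a higher mean in MIX and 6 a lower one, with 0 at an unadjusted p under 0.05 by limma, against 4.79% of all tested probesets.

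**Figure D2:**
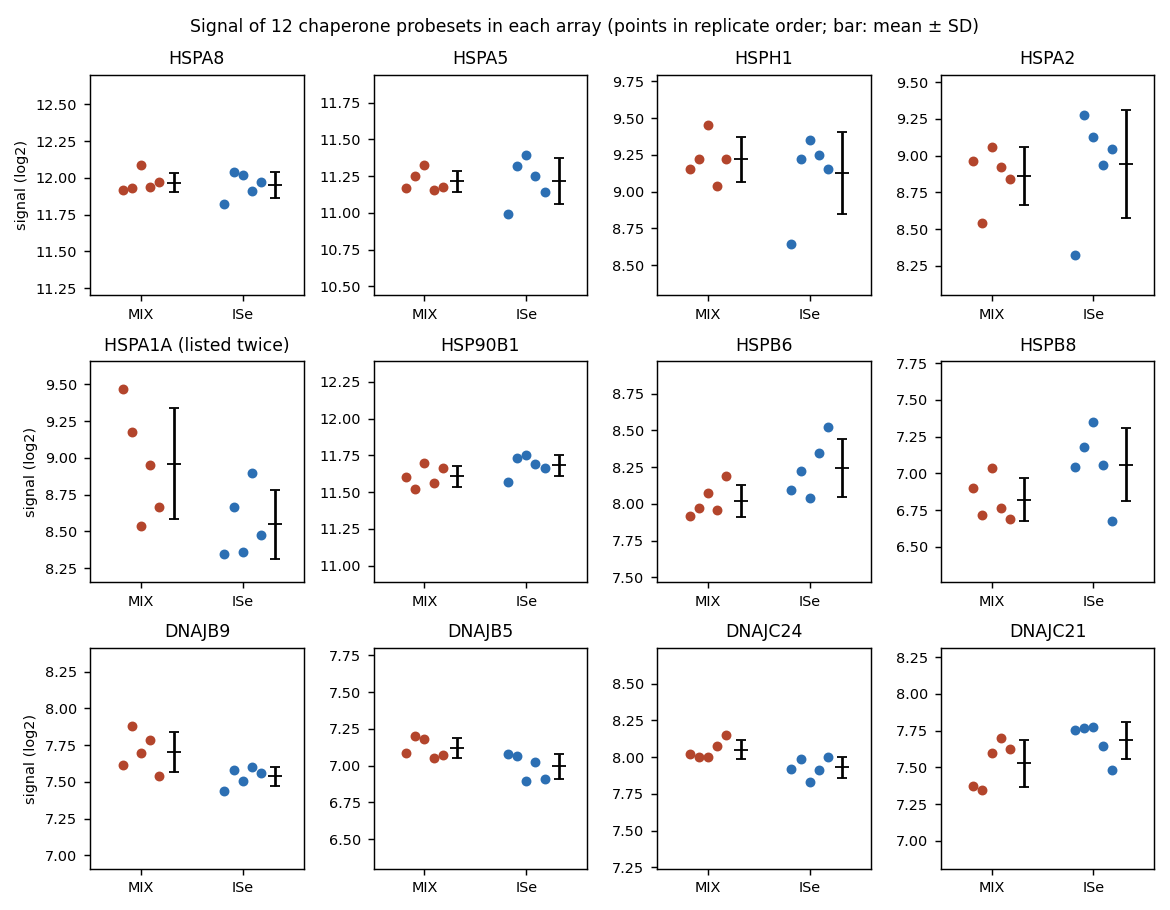
Log2 signal (vertical axis, each panel spanning 1.5 log2 units) of 12 chaperone probesets in the 5 MIX and 5 ISe arrays, with points in replicate order and the mean ± SD beside them. The groups overlap in every panel. ISe 2, the leftmost ISe point, is the lowest ISe sample for HSPA8, HSPA5, HSPH1, HSPA2, HSPA1A, HSP90B1 and DNAJB9.

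Of the 9 members placed in the endoplasmic reticulum here, 1 had an unadjusted p under 0.05 by limma, against 4.79% of all tested probesets. This set may leave out other members that act there, and DNAJC14, DNAJC16 and DNAJC18 were not placed in it. DNAJB9, a co-chaperone induced by the unfolded protein response that helps HSPA5 release misfolded proteins for degradation, read 7.61, 7.88, 7.70, 7.78 and 7.54 in MIX, against 7.44, 7.58, 7.51, 7.60 and 7.56 in ISe. Of the MIX samples, 4 lay above the highest ISe sample, and MIX 11 lay within the ISe range. The log2 difference was 0.16 ± 0.07, with an unadjusted p of 0.0433 and an adjusted p of 0.941 by limma, and an exact two-sided permutation p of 0.0476. A single value can reach 0.00794 at the smallest in this design. The unadjusted limma p of DNAJB9 depended on single samples. It was 0.0964 without ISe 2, its lowest sample, and 0.0987 without MIX 8, its highest, but 0.0148 without MIX 11.

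HSPA5 (BiP), the HSP70 of the reticulum lumen, had nearly equal means. It read 11.17, 11.25, 11.32, 11.16 and 11.18 in MIX, against 10.99, 11.32, 11.39, 11.25 and 11.14 in ISe, a 0.997-fold difference with a 95% interval of 0.884 to 1.13. The ISe samples held both the lowest and the highest value. HSP90B1 (GRP94), the HSP90 of the lumen, read 11.60, 11.52, 11.70, 11.56 and 11.66 in MIX, against 11.57, 11.73, 11.76, 11.69 and 11.66 in ISe. Its log2 difference of -0.07 ± 0.06 (SE) was close to its error, and the groups overlapped. DNAJB11, which delivers clients to HSPA5, differed by 0.03 ± 0.09, and DNAJC3, a lumenal co-chaperone also known as an inhibitor of the kinase PERK, by -0.02 ± 0.06. DNAJC1, a J protein of the reticulum membrane, was at 0.16 ± 0.11, with ISe 2 the lowest sample at 6.86 and the others between 7.18 and 7.53, and at 0.06 without that sample. The remaining genes of this set, HSPA13, DNAJB12 and DNAJB14, lay between -0.04 and 0.09.

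Genes of the reticulum chaperones were compared with HSPA5 across the 10 arrays, among 6 pairs of textbook partners. DNAJB11 followed HSPA5 with a Pearson r of 0.73 (permutation p = 0.0156, adjusted 0.0934 over the 6 pairs) and a Spearman rho of 0.64 (permutation p = 0.0547, adjusted 0.164). HSP90B1 followed it with r = 0.66 (permutation p = 0.0349, adjusted 0.105) and rho = 0.64 (permutation p = 0.0539, adjusted 0.164). Neither passed after adjustment. Without ISe 2 and ISe 5, the 2 arrays farthest from the median of HSPA5, r was 0.61 for DNAJB11 and 0.47 for HSP90B1, so both relations were weaker without those samples. After each group's mean was subtracted, r was 0.74 and 0.75. Without MIX 8 it was 0.83 for DNAJB11 and 0.87 for HSP90B1, each with an adjusted permutation p of 0.0146. These were the highest values with 1 array left out, in ranges of 0.50 to 0.83 and 0.54 to 0.87. The adjustment covers the 6 pairs and not the choice of the array left out.

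DNAJB9 and DNAJC3 followed HSPA5 less closely in value, at r = 0.23 (permutation p = 0.521, adjusted 0.711) and r = 0.18 (permutation p = 0.623, adjusted 0.711), with rho at 0.18 (p = 0.632, adjusted 0.746) and 0.14 (p = 0.702, adjusted 0.746). Without ISe 2 and ISe 5 these were 0.14 and 0.13. The difference between these correlations was not tested. The heat-induced pair HSPH1 and DNAJB1 had r = 0.17 (permutation p = 0.619, adjusted 0.711) and rho = 0.40 (p = 0.254, adjusted 0.508), and r = 0.08 without MIX 9 and ISe 2. HSPB6 and HSPB7, small heat shock proteins of muscle, had r = 0.13 (permutation p = 0.711, adjusted 0.711) and rho = 0.12 (p = 0.746, adjusted 0.746), and r = 0.15 without ISe 6 and ISe 7. The other 6 pairs chosen hold a gene without a probeset of its own. No batch is given in the labels, so no value within batches could be had.

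**Figure D3:**
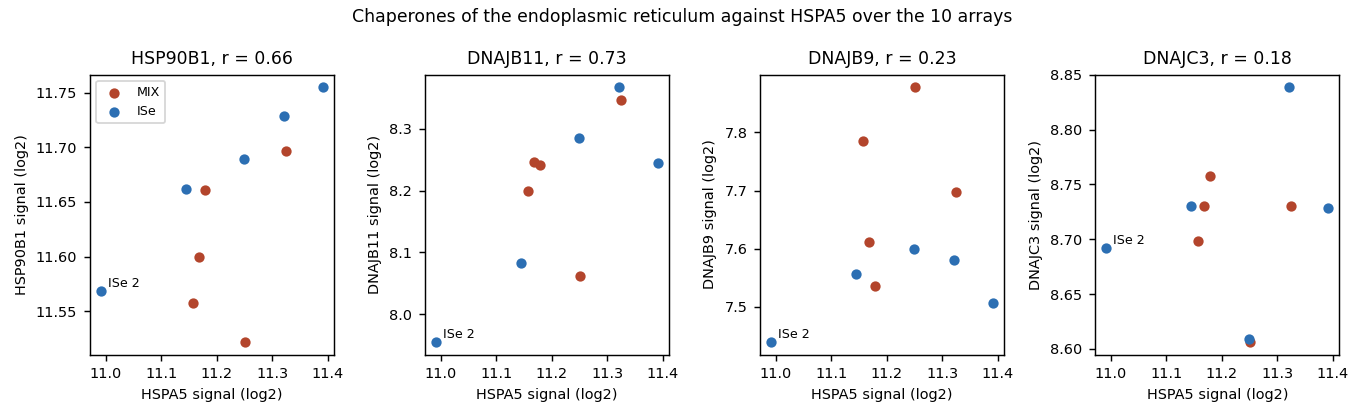
Log2 signal of HSP90B1, DNAJB11, DNAJB9 and DNAJC3 (vertical axes) against that of HSPA5 (horizontal axes) in 5 MIX and 5 ISe arrays. HSP90B1 and DNAJB11 lie along a slope with r of 0.66 and 0.73, ISe 2 is at the low end of HSPA5 in each panel, and DNAJB9 and DNAJC3 scatter with r of 0.23 and 0.18.

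HSP90AB1, the constitutive HSP90 of the cytosol that holds the progesterone receptor in a hormone-ready state, varied widely between samples within both groups. It read 7.47, 7.42, 7.41, 7.63 and 7.99 in MIX, against 7.62, 7.90, 7.64, 7.33 and 7.64 in ISe. MIX 11 and ISe 3 were the high samples. The fold change was 0.972, with a 95% interval of 0.798 to 1.18.

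Mitochondrial chaperones did not differ past the threshold, and 0 of the 7 had an unadjusted p under 0.05 by limma, against 4.79% of all tested probesets. HSPA9 (mortalin), which pulls proteins into the matrix, read 11.39, 11.55, 11.42, 11.41 and 11.45 in MIX, against 11.44, 11.50, 11.35, 11.36 and 11.38 in ISe, with a 95% interval of the fold change from 0.943 to 1.12. HSPE1 read 11.70, 11.55, 11.67, 11.73 and 11.90 in MIX, against 11.68, 11.76, 11.70, 11.71 and 11.98 in ISe. Both groups had 1 high sample for HSPE1, MIX 11 and ISe 7, and the log2 difference was -0.06 ± 0.08 (SE), or -0.0051 without ISe 7.

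DNAJA3, the main J partner of HSPA9, was at 8.72 ± 0.07 in MIX, against 8.67 ± 0.09 in ISe. DNAJC15, a J protein of the import machinery, had its widest spread in MIX, where it read 8.39, 8.49, 8.27, 8.84 and 7.96, against 8.13, 8.50, 8.38, 8.37 and 8.31 in ISe. The highest and the lowest of all 10 samples were both MIX. DNAJC30, which binds ATP synthase in neurons of mice, was at -0.16 ± 0.12 (log2 difference ± SE), with MIX 8 at 6.78 against 7.18 to 7.23 in the other MIX samples and 7.08 to 7.52 in ISe. Without MIX 8 its difference was -0.07. DNAJC11, of the outer membrane, and DNAJC28 had log2 differences of 0.02 and -0.09.

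Of the small heat shock proteins, HSPB6 and HSPB8 had the lowest differences, and both are best known from muscle. HSPB6 (HSP20), a target of cyclic nucleotide kinases in smooth muscle, read 7.91, 7.97, 8.07, 7.96 and 8.19 in MIX, against 8.09, 8.22, 8.04, 8.35 and 8.52 in ISe. In 3 of 5 MIX samples it lay below the lowest ISe sample. The log2 difference was -0.23 ± 0.10, with an unadjusted p of 0.0400 and an adjusted p of 0.941 by limma, and an exact two-sided permutation p of 0.0556.

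HSPB8, which works with BAG3 in the clearance of damaged proteins, read 6.90, 6.72, 7.03, 6.77 and 6.69 in MIX, against 7.04, 7.18, 7.35, 7.05 and 6.67 in ISe. The highest MIX sample lay just below 4 of the ISe samples, and ISe 7 was the lowest of all. The log2 difference was -0.24 ± 0.12 (unadjusted p = 0.0692, adjusted p = 0.941 by limma). The 2 genes took their extremes from different samples, since ISe 7 was the highest for HSPB6 and the lowest for HSPB8.

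Markers of smooth muscle and pericytes, measured with 9 of 10 genes, had list means from -0.22 to 0.22 in MIX and from -0.11 to 0.16 in ISe, with 5 of 9 genes higher in MIX and 0 at an unadjusted p under 0.05. They included MYH11, TAGLN, CNN1 and DES, and ACTA2 had no probeset of its own. The mean over the 9 genes was 0.04 log2 higher in MIX, with TAGLN, CNN1, RGS5 and LMOD1 lower there by mean. The part of smooth muscle content in the values of HSPB6 and HSPB8 was not tested.

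HSPB1 (HSP27), which caps actin filaments, had nearly equal means but a wider range in MIX. It read 10.64, 10.55, 10.86, 11.09 and 11.03 in MIX, against 10.90, 10.80, 10.82, 10.73 and 10.87 in ISe. The MIX samples lay on both sides of all ISe samples, 2 below and 2 above, and the SD was 0.24 in MIX and 0.07 in ISe. The difference in spread was not tested. HSPB2, HSPB3, HSPB7 and HSPB9 lay at mean signals of 3.51 to 5.38, below the array medians, with log2 differences from -0.06 to 0.06. HSPB2 carried 1 deposited value on 5 of 10 arrays, and HSPB3 and HSPB7 each on 4.

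Of the 2 binding partners, HSPBP1, an exchange factor of HSP70, was at 6.52 ± 0.06 in MIX, against 6.53 ± 0.06 in ISe, and HSPBAP1, which binds HSPB1, at 6.52 ± 0.17 in MIX, against 6.48 ± 0.13 in ISe. HSPBP1 carried 1 deposited value on 4 of the 10 arrays.

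DNAJB1, the J protein that heat induces together with HSP70, had nearly equal means. It read 8.60, 8.79, 8.90, 8.79 and 8.79 in MIX, against 8.77, 8.93, 8.81, 8.57 and 8.78 in ISe, with a fold change of 0.998 (95% interval 0.887 to 1.12). The 2 low samples were MIX 1 and ISe 6, 1 in each group.

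DNAJB5, a cytosolic relative of DNAJB1, read 7.08, 7.20, 7.18, 7.05 and 7.07 in MIX, against 7.08, 7.07, 6.90, 7.03 and 6.91 in ISe. The contrast of 0.12 ± 0.06 (unadjusted p = 0.0666, adjusted p = 0.941 by limma, exact permutation p = 0.0476) came from 2 high MIX and 2 low ISe samples. DNAJB4 and DNAJB6, the second a suppressor of polyglutamine aggregation, had log2 differences of 0.02 and 0.01, and DNAJB2, a J protein with ubiquitin-binding motifs, of 0.03. DNAJA4 was at -0.05 ± 0.07.

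The J proteins known from testis were dim. DNAJB3, DNAJB7, DNAJB8, DNAJB13, DNAJC5B and DNAJC5G had mean signals between 2.91 and 5.15. DNAJB13, an axonemal protein in sperm and cilia, had the highest difference of the 65 genes, at 0.17 ± 0.11 (SE), with 3 MIX samples above all ISe samples and MIX 11 level with the lowest of them, at 4.91. Without MIX 1 and MIX 8 together the difference was 0.03. DNAJB3 and DNAJB8 were among the 6 widest genes, and MIX 1 was the lowest sample for both, at 3.92 and 4.46. Of the 15 DNAJA and DNAJB genes, 9 had a higher mean in MIX and 6 a lower one.

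The 25 DNAJC proteins share only the J domain and act at many places. Those of protein synthesis were measured by 3 genes. DNAJC24, which helps make diphthamide on elongation factor 2, read 8.02, 8.00, 8.00, 8.07 and 8.15 in MIX, against 7.92, 7.99, 7.83, 7.91 and 8.00 in ISe. Of the MIX samples, 4 lay above the highest ISe sample, by small margins. This gave a log2 difference of 0.12 ± 0.06 (unadjusted p = 0.0574, adjusted p = 0.941 by limma, exact two-sided permutation p = 0.0159).

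DNAJC2, the ribosome-bound partner of HSPA14, read 7.68, 7.76, 7.79, 7.67 and 7.82 in MIX, against 7.82, 7.87, 7.79, 7.85 and 7.77 in ISe. It lay lower in MIX by little, with a log2 difference of -0.08 ± 0.05 and 3 MIX samples below all ISe samples. DNAJC21, needed for maturation of the large ribosomal subunit, read 7.37, 7.35, 7.60, 7.70 and 7.62 in MIX, against 7.75, 7.77, 7.78, 7.65 and 7.48 in ISe. Its low samples were MIX 1 and MIX 8, and the log2 difference was -0.16 ± 0.09 (unadjusted p = 0.104, adjusted p = 0.941 by limma), or -0.05 without those samples together.

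Genes of vesicle traffic held 1 of the widest members and the steadiest one. DNAJC6 (auxilin), which recruits HSPA8 to clathrin coats, read 6.53, 6.62, 6.99, 5.78 and 5.98 in MIX, against 6.48, 6.53, 6.40, 6.49 and 6.80 in ISe. MIX 9 was the highest and MIX 10 and MIX 11 the lowest of all 10 samples, and the SD was 0.49 in MIX and 0.15 in ISe. DNAJC13, which recruits HSPA8 to endosomes, had an SD of 0.0412 over the 10 arrays, with 0.966% of tested probesets below it. Its mean ± SD was 9.05 ± 0.03 in MIX, against 9.00 ± 0.03 in ISe, a 1.04-fold difference with a 95% interval of 0.963 to 1.11. DNAJC5, the cysteine string protein of secretory vesicles, was at -0.04 ± 0.07.

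The DNAJC genes not placed above had log2 differences from -0.22 (DNAJC22) to 0.08 (DNAJC14). DNAJC22 read 4.86, 5.39, 5.30, 5.32 and 5.67 in MIX, against 5.41, 6.09, 5.55, 5.23 and 5.39 in ISe, with MIX 1 the lowest and ISe 3 the highest. Its difference was -0.11 without MIX 1 and -0.08 without ISe 3. DNAJC12, which binds the hydroxylases of aromatic amino acids, was at -0.13 ± 0.10 (SE), and 1 sample stood apart in each group, MIX 10 at 5.46 and ISe 3 at 6.13. It was -0.05 without MIX 10 and -0.06 without ISe 3. DNAJC9, a histone chaperone of dividing cells, was lowest in MIX 8, at 6.15 against 6.37 to 6.83 in the other 9 samples. DNAJC7, a carrier between HSP70 and HSP90, and DNAJC17, of the spliceosome, differed by 0.02 and -0.0040. Of the 25 genes, 10 had a higher mean in MIX and 15 a lower one, and 0 had an unadjusted p under 0.05 by limma, against 4.79% of all tested probesets.

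**Figure D4:**
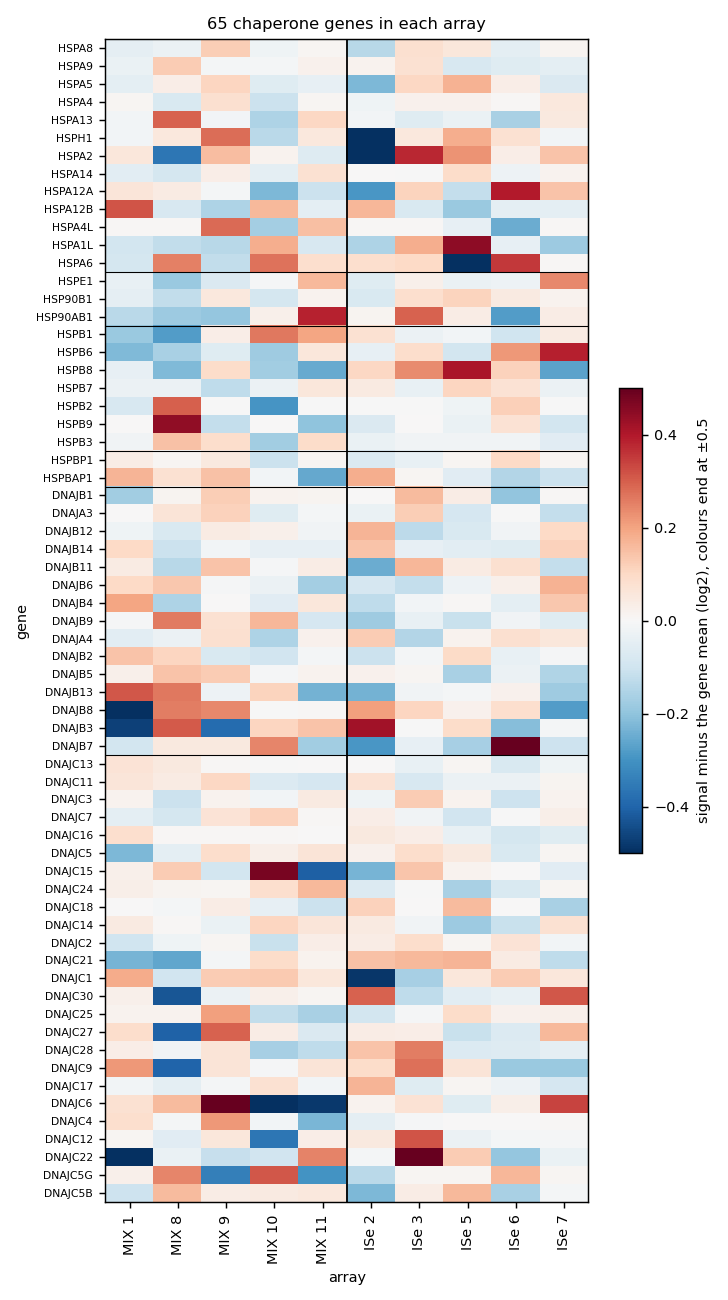
Deviation of the log2 signal from each gene's 10-array mean (colour, ending at ±0.5) for the 65 genes (rows, by family and then by falling mean signal) in 5 MIX and 5 ISe arrays (columns). ISe 2 is low for HSPA8, HSPA5, HSPH1, HSPA2 and DNAJC1, and DNAJC6 ranges from high in MIX 9 to low in MIX 10 and MIX 11.

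Single samples, and not the groups, held the larger excursions. ISe 2 was the lowest array for 11 of the 65 genes (16.9%), against 9.63% of all tested probesets. The mean of the 13 HSP70 and HSP110 genes was -0.13 in ISe 2 and between -0.02 and 0.07 in the other 9 arrays (log2, relative to the mean of all arrays). The 9 genes placed in the reticulum were at -0.10 in ISe 2 and between -0.01 and 0.06 elsewhere. DNAJC14, DNAJC16 and DNAJC18, not placed in that set, lay above their means in ISe 2. HSPA5 and HSPA13 belong to both sets. In ISe 2, HSPA2 read 8.33 (10-array mean 8.90), HSPH1 8.64 (mean 9.17) and DNAJC1 6.86 (mean 7.34). HSPA4L, HSPA6, HSPA9, HSPA12B, HSPA14, DNAJB12 and DNAJB14 lay above their means there, so neither shift held for the whole set. Smaller sets had means at least as far from 0 in other arrays. The 5 muscle genes were at -0.17 in MIX 10, and the 9 testis genes at 0.14 in MIX 8. The 3 genes of HSP90 and HSPE1 were at 0.19 in MIX 11 and -0.16 in MIX 8. The macrophage list was at -0.48 in ISe 2, its lowest value, and next lowest in ISe 7, at -0.36. In ISe 7 the HSP70 and HSP110 mean was 0.0045 and the reticulum mean 0.011. A relation between these means and the macrophage list was not tested. MIX 8, which stood apart over all probesets, was the lowest array for 11 of the 65 genes and the highest for 8, and either for 29.2%, against 32.5% of all tested probesets. MIX 9 and ISe 3 were each the highest array for 10 genes (15.4%), against 10.2% and 9.00% of all tested probesets.

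The members varied less between samples than most probesets, and many of them lie at high signal. Their median SD over the 10 arrays was 0.127, against 0.153 over all tested probesets, and 40 of 65 lay below that median of all. When the tested probesets were ranked by mean signal in 4 equal bins, 27 members fell in the highest bin, where the median SD was 0.0897 for members and 0.109 for all. In the next bin down, with 22 members, the medians were 0.139 for members and 0.132 for all. In the 2 lower bins, with 8 members each, they were 0.155 and 0.169, then 0.208 and 0.207. HSPA8, HSPA9, HSPA4, HSPA14 and HSP90B1 had SDs from 0.0558 to 0.0781, all below the median of that highest bin.

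**Figure D5:**
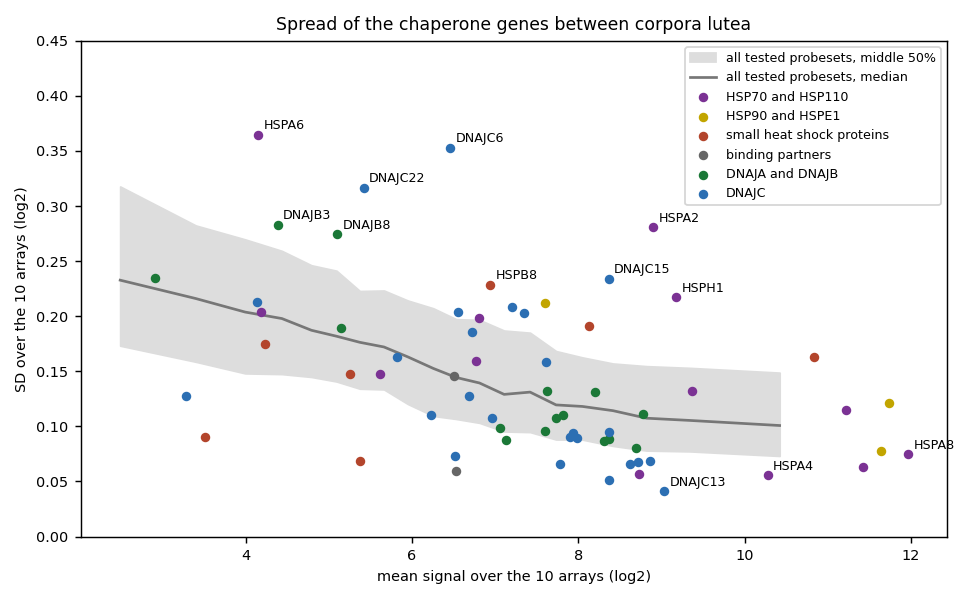
SD over the 10 arrays (vertical axis, log2) against mean signal (horizontal axis, log2) of the 65 genes, coloured by family, over the median and middle 50% of all tested probesets in 20 bins of signal (grey). HSPA6, DNAJC6 and DNAJC22 lie highest, HSPA2, DNAJC15 and HSPH1 lie above the grey band at their signal, and DNAJC13 is the lowest.

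Other genes of the chaperone system were taken from 6 lists, and their log2 differences ran from -0.94 (FOS) to 0.44 (CCT6B). Of 95 genes measured, 2 were higher and 1 lower in MIX at an unadjusted p under 0.05 by limma (3.16%, against 4.79% of all tested probesets), 0 passed after adjustment, and the median log2 difference was 0.011. Of 8 heat shock factors and their regulators measured, 0 had an unadjusted p under 0.05. HSF1, the master factor of the heat shock response, was at 7.81 ± 0.04 in MIX, against 7.78 ± 0.08 in ISe. HSF4 and HSBP1, a binding protein of HSF1, were at 0.17 ± 0.11 and -0.04 ± 0.07 (log2 difference ± SE).

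Among 15 exchange factors and helpers of HSP70, BAG1 was the 1 gene with an unadjusted p under 0.05. It read 8.59, 8.39, 8.25, 8.35 and 8.57 in MIX, against 8.53, 8.62, 8.72, 8.62 and 8.82 in ISe, with 3 MIX samples below all ISe samples. The log2 difference was -0.23 ± 0.08 (unadjusted p = 0.0173, adjusted p = 0.941 by limma). ST13 and SGTA were at -0.07 ± 0.06 and 0.06 ± 0.06.

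Among 22 co-chaperones of HSP90, AHSA1, which speeds its ATP cleavage, was the 1 gene with an unadjusted p under 0.05. It read 8.08, 8.09, 8.18, 8.13 and 8.16 in MIX, against 7.91, 7.96, 8.16, 7.90 and 8.02 in ISe, with only ISe 5 inside the MIX range. This gave a log2 difference of 0.14 ± 0.06 (unadjusted p = 0.0488, adjusted p = 0.941 by limma). TRAP1, the mitochondrial HSP90, was at 0.15 ± 0.07 and RPAP3 at -0.14 ± 0.08.

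Of 18 genes of the CCT chaperonin and prefoldin, CCT6B, a subunit known from testis, was the 1 gene with an unadjusted p under 0.05 (0.0446, adjusted p = 0.941 by limma). Its mean was 4.39 in MIX and 3.94 in ISe, at signals below 5, where array values are less certain. It read 4.10, 4.87, 4.25, 4.27 and 4.44 in MIX, against 4.21, 3.32, 3.78, 4.21 and 4.21 in ISe. ISe 2, ISe 6 and ISe 7 carried the same deposited value, and ISe 3 and ISe 5 were the low samples. PFDN1 and CCT4 were at -0.16 ± 0.09 and 0.09 ± 0.06. In a list of 16 other heat-inducible genes AHSA1 was again the 1 gene, and FOS and CLU followed at -0.94 ± 0.44 and 0.33 ± 0.19 (log2 difference ± SE). FOS had an unadjusted p of 0.0577 and an adjusted p of 0.941 by limma. It was highest in ISe 2, at 8.20, and ISe 7, at 8.79, with the other samples from 6.04 to 7.32. Of 21 mitochondrial import and protease genes, 0 had an unadjusted p under 0.05 by limma, with PITRM1, TIMM50 and SPG7 at 0.20, -0.12 and 0.07.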

How the data were processed

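The deposited table holds 26773 probesets on 10 Affymetrix whole-transcript arrays of total RNA, in values the authors had processed before deposit. The scale is not stated, and from their range and medians the deposited values were read as log2 signals. Per the submitters' processing notes, the tools were GCOS 1.2 and Partek, without a stated role. How the authors corrected background, summarised probes or normalised is not given here, and no further normalisation was applied.

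The 19145 probesets with at least 1 symbol in the platform annotation were fitted with limma 3.58.1 in R 4.3.3 (lmFit and eBayes, two-sided), and p-values were adjusted by Benjamini-Hochberg over all of them, at a threshold of 0.05. Differences carry standard errors and 95% intervals from this model, whose calls were tested on simulated data with planted changes. Exact permutation tests used all 252 splits of the arrays, and correlations 100000 resamples. Groups come from the titles. The members and lists were chosen with earlier results of these data known. Named were the 6 members with the smallest p in each direction, the 8 with the highest signal, the 6 with the largest SD, a fixed set of textbook chaperones and up to 3 genes per list. Other members are named from their seen values. The settings varied were the normalisation (quantile, median centring), a filter on the dimmest 25% or 50%, unnamed probesets included, averaged probesets, trended or no moderation, array quality weights, and leaving out each array or MIX 1 and MIX 8 together. The HSPA1A probeset was added after the data were examined.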

Additional observations from a re-analysis of the deposited data

Results flagged for a closer look

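In 12 of 132 groups of 5 values, 1 sample stood apart from the other 4 by a gap above Dixon's critical value of 0.710 of the group's range. For values without ties from a normal distribution, chance alone gives about 1 in 20 groups, or 6.6 here. Repeated deposited values can widen the gap, and the share over all tested probesets was not computed. The count therefore cannot be read as a trait of the chaperones. In the MIX group, DNAJC16 was 8.46 in MIX 1, with the others from 8.375 to 8.379, and DNAJB8 was 4.46 in MIX 1, with the others from 5.10 to 5.36. DNAJC30 was 6.78 in MIX 8, with the others from 7.18 to 7.23. MIX 10 stood apart for HSPBP1 at 6.42 (others 6.53 to 6.57), DNAJC12 at 5.46 (5.76 to 5.88) and HSPA1L at 4.37 (4.05 to 4.10).

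In the ISe group, HSPH1 was 8.64 in ISe 2, with the others from 9.16 to 9.35, and DNAJC4 was 6.18, with the others from 6.23 to 6.24. DNAJC12 was 6.13 in ISe 3, with the others from 5.79 to 5.87, and HSPA6 was 3.21 in ISe 5, with the others from 4.16 to 4.51. HSPA4L was 5.37 and HSPB2 5.38 in ISe 6, with the others from 5.58 to 5.63 and from 5.24 to 5.26. In the groups of DNAJC16, HSPA4L and HSPB2, 3 of the 5 deposited values were identical, and in those of DNAJC30, HSPBP1 and DNAJC4, 2 were.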

How the results depend on the processing

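No paired analysis was possible because the groups share no replicate number. Over 20 alternative settings, 0 of the named genes passed the adjusted threshold in any, and 598 of 631 values kept the sign of the reported one. The filters, the unnamed probesets, the averaging and the moderation settings leave the log2 difference of a member as it is. Their values are among the 598 and could not change sign, so that count overstates how steady the signs were. The count of probesets called over all tested was 0 except without MIX 8, where it was 1, so with 1 array left out it ran from 0 to 1. The median over the members ran from -0.016 to 0.0048 with 1 array left out. The count of members at an unadjusted p under 0.05 was 2 (1 higher, 1 lower). With 1 array left out it ran from 0 to 3, with 0 to 2 higher and 0 to 2 lower. It was 1, with 0 higher, after quantile normalisation, 1, with 0 lower, with array quality weights or without MIX 1 and MIX 8 together, and 4, with 4 higher and 0 lower, without moderation. It was 4, with 3 higher, without the dimmer 50% of probesets, and 2 were higher without the dimmest 25% or with trended moderation. HSPA5 turned to 0.0048 after quantile normalisation. With array quality weights, DNAJB1 turned to 0.018, DNAJC3 to 0.0014 and HSP90AB1 to 0.029. Without MIX 1 and MIX 8 together, DNAJB1 was 0.050, DNAJB8 0.054, DNAJC3 0.0089, HSP90AB1 0.050 and HSPA5 0.00053. With 1 array left out, log2 differences ran from -0.052 to 0.041 for DNAJB1, -0.13 to 0.097 for DNAJB8, -0.043 to 0.015 for DNAJC3, -0.14 to 0.027 for HSP90AB1, -0.061 to 0.039 for HSPA5, -0.026 to 0.077 for DNAJB11, -0.23 to 0.0048 for HSPA2, -0.055 to 0.27 for HSPA6, -0.017 to 0.038 for HSPA8, -0.054 to 0.082 for HSPB1 and -0.027 to 0.15 for HSPH1. They kept their sign for HSPB6 (-0.28 to -0.16), HSPB8 (-0.33 to -0.17), DNAJB9 (0.12 to 0.21) and HSPA1A (0.28 to 0.52). Correlations with 1 array left out ran from 0.54 to 0.87 for HSPA5 and HSP90B1, 0.50 to 0.83 for HSPA5 and DNAJB11, -0.16 to 0.48 for HSPA5 and DNAJB9, -0.038 to 0.28 for HSPA5 and DNAJC3, -0.012 to 0.33 for HSPH1 and DNAJB1 and -0.013 to 0.34 for HSPB6 and HSPB7. Without MIX 1 and MIX 8 together, HSPA5 correlated with HSP90B1 at 0.87 (adjusted permutation p = 0.0157) and with DNAJB11 at 0.86 (adjusted permutation p = 0.0188). The cause of these changes was not tested. Signals below about 5 are near the low end of the arrays and limit 8 of the 65 genes.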

Other observations

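Many probesets carry exactly the same deposited value on several arrays, given to as many digits as the table holds. Of the 65 chaperone genes, 26 (40.0%) had a value shared by at least 2 arrays, against 41.6% of all tested probesets, and 15 had 1 shared by at least 3 arrays (23.1%, against 20.6%). HSPA4L and HSPB2 had the same value on 5 of 10 arrays, and HSPB3, HSPB7 and HSPBP1 on 4. The share fell with signal over all tested probesets, at 54.9% in the lowest of 4 equal bins and 25.1% in the highest. Among the members it was 10 of 27 in the highest bin, where DNAJB14, DNAJC3, HSPA13 and HSPH1 each had a value on 3 arrays. The source of the identical values was not tested.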
